A study of Mus musculus with 30 samples.

Results

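Livers of mice fed casein were compared with livers of mice fed soy protein at the same dietary supply of methionine and cystine. The comparison took the 6 livers of the Cas-20% diet, 20% casein by weight, and the 6 livers of the Soy-20% + SAA diet, 20% soy protein with methionine and cystine added, which are 12 of the 30 livers of the series. Methionine was 0.57 g per 100 g on Cas-20% and 0.58 on Soy-20% + SAA, and cystine was 0.41 g per 100 g on both. All animals were male C57BL6/J mice aged 6 months, kept on their diet for 12 weeks and killed after a 4 h fast. The Cas-20% mice had eaten that diet from the start of acclimation, whereas the Soy-20% + SAA mice had eaten Soy-20%, the same soy diet without added sulfur amino acids, for 2 weeks before the switch. Each library came from 1 liver and was read from the 3′ end of its messenger RNAs, with 9788023 to 14565542 counts assigned to genes. Differences are given as log2 fold changes, Cas-20% minus Soy-20% + SAA, so that positive values are higher on casein, and levels as CPM, the counts of a gene scaled to a fixed library total.

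Casein and soy protein differ in their amino acid make-up beyond methionine and cystine, and the liver is the main site where amino acids in excess of need are broken down. Their nitrogen is released as ammonia and turned into urea by the urea cycle in hepatocytes, and the enzymes of both pathways are known to respond to protein supply, glucagon and glucocorticoids. Soy protein isolates also carry plant compounds such as isoflavones, and the liver removes foreign compounds through cytochromes P450, carboxylesterases and conjugating enzymes that ligand-activated nuclear receptors can induce.

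Libraries of one diet stood apart. Libraries 3 to 6 of Soy-20% + SAA had lower counts of genes whose 3′ ends are AT-rich: the slope of log2 CPM on the GC content of the last 200 transcript bases, relative to the mean of the Cas-20% libraries, was 0.07, 0.18, 0.18 and 0.20 per 10% of GC in them. It was −0.02 and −0.01 in Soy-20% + SAA libraries 1 and 2, and between −0.05 and 0.04 in the other 24 libraries of the series. The mean slopes of the 2 diets differed by −0.10, with p = 0.058 in an exact two-sided permutation test over the 12 livers. In that test 0.0022 is the smallest p that 6 against 6 allows. It compares diet means, whereas libraries 3 to 6 were set apart from 1 and 2 of the same diet by these same slopes. It therefore cannot decide whether libraries 3 to 6 differ from the rest, and no conclusion is drawn from its p. Because the slopes of libraries 3 to 6 lay above all others, every result was also fitted with 8 livers. These were the 6 Cas-20% livers against Soy-20% + SAA 1 and 2. All 8 livers are also among the 12, on the casein and the soy side, so the second fit is not independent of the first.

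**Figure D1:**
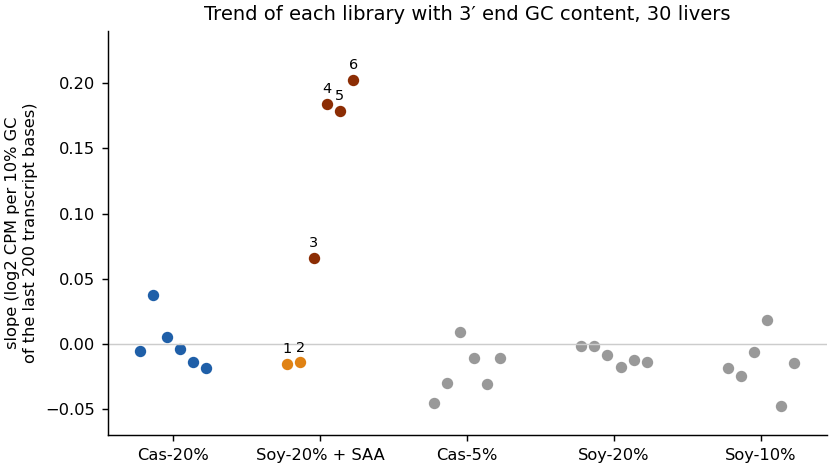
Slope of log2 CPM on the GC content of the last 200 transcript bases (vertical axis, log2 CPM per 10% GC) for each of the 30 libraries, one point a library, by diet (horizontal axis), with Soy-20% + SAA libraries numbered. Libraries 3 to 6 of Soy-20% + SAA lie at 0.07 to 0.20, above all others, which lie between −0.05 and 0.04.

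With all 12 livers, 291 of 11988 genes tested (2.43%) passed an adjusted p of 0.05 in edgeR's quasi-likelihood test, 170 higher on Cas-20% (1.42%) and 121 higher on Soy-20% + SAA (1.01%), and 57 of them (0.475%) changed by 1 or more on the log2 scale. The 2 diets did not overlap in CPM for 322 genes (2.69%), 166 higher on Cas-20% (1.38%) and 156 higher on Soy-20% + SAA (1.3%). In the same edgeR fit 3143 of the 11988 genes had an unadjusted p under 0.05, and DESeq2 called 1155 with the 12 livers. Such counts for single lists below stand against these totals. With 8 livers, which leave 2 on the soy diet, only 3 of 12498 genes passed (0.024%), all higher on Soy-20% + SAA, although 906 (7.25%) had an unadjusted p under 0.05 and DESeq2 called 25. All 291 genes had the same direction in the 8-liver fit, 208 of them (1.74% of genes tested) with an unadjusted p under 0.05, but 246 were larger with 12 livers, and the median absolute log2 fold change of the 291 was 0.62 with 12 livers and 0.42 with 8. The 291 were chosen by a fit that holds the same 8 livers, so their shared direction is in part built in. The median GC content of the last 200 bases was 36.0% among genes higher on Cas-20%, 43.0% among genes higher on Soy-20% + SAA and 40.5% over all genes tested. Leaving out any 1 of the 12 libraries moved the count by more than 1.5 times, from 9 calls without Soy-20% + SAA 6 to 1817 without Soy-20% + SAA 1. *Ces2a*, *Cyp3a11*, *Csad*, *Cyp8b1*, *Ces1e*, *Klf15*, *Srebf1* and *Cyp3a59* were the 8 genes that remained called in all 12 of these fits, and every other call named here was lost in at least 1 of them. The calls reported next are those of the 12-liver fit, with the 8-liver value beside them.

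*Cyp3a11*, *Csad* and *Ces2a* were the 3 genes called in both fits (0.025%), and all were higher on soy protein. *Cyp3a11* encodes the main drug-oxidising cytochrome P450 of the 3A subfamily in mouse liver, *Csad* encodes cysteine sulfinic acid decarboxylase, which commits cysteine carbon and sulfur to taurine, and *Ces2a* encodes a carboxylesterase that hydrolyses esters of drugs and lipids. The 250 bases before the transcription start of each, from RefSeq annotation of GRCm38.p6, are shown because these genes were called in both fits. RefSeq places the start of *Cyp3a11* inside the GENCODE M21 gene span given below and that of *Csad* beyond its end, so these windows are relative to the RefSeq start. Capitals mark AGNTCA, the half-site that many nuclear receptors bind, found on either strand (TGANCT when it lies on the other strand).

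Cyp3a11, chr5:145879855-145880104, minus strand:
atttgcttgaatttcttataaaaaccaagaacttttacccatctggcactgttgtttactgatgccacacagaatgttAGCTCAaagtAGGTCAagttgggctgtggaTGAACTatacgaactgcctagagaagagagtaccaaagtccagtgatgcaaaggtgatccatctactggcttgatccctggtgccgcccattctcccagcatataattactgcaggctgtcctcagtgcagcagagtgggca

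Csad, chr15:102205053-102205302, minus strand:
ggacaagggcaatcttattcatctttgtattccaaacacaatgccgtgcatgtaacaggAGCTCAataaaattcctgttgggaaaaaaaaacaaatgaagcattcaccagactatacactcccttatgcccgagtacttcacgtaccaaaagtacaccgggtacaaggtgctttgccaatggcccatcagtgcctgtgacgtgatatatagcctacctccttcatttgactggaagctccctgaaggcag

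Ces2a, chr8:104733753-104734002, plus strand:
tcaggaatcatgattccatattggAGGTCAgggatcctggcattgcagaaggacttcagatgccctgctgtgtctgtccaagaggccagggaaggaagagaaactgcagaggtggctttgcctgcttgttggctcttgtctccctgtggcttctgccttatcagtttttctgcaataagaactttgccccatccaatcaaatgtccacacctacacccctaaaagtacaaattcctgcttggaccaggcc

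The *Cyp3a11* window held 3 matches, beginning 172, 162 and 142 bases before the start, and the windows of *Csad* and *Ces2a* held 1 each. Of 32851 such windows, 41.3% held at least 1 match and 2.5% held 3 or more, so that a single match is common, and a match of these letters is not a bound site.

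*Cyp3a11* (chr5:145854426-145879964, minus strand) was at 426 to 765 CPM (median 583) on Cas-20% and 1884 to 4103 CPM (median 2318) on Soy-20% + SAA. The groups did not overlap, and the lowest soy liver was over the highest casein liver by more than the whole casein range. Its fold was 4.36 (log2 fold change −2.12 ± 0.20 (SE), adjusted p = 0.000133), and the 8-liver value was −2.53 ± 0.20 with adjusted p = 0.000471. Soy-20% + SAA liver 1 was the highest of the 12. In the other diets, the gene was at 1898 to 4080.3 CPM on Soy-20%, 2361 to 3716 CPM on Soy-10% and 1004 to 1424 CPM on Cas-5%, all above every Cas-20% liver.

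*Csad* (chr15:102176999-102204724, minus strand) was at 142 to 306 CPM (median 197) on Cas-20% and 574 to 1068 CPM (median 725) on Soy-20% + SAA, again without overlap. The fold was 3.6 (log2 fold change −1.85 ± 0.21 (SE), adjusted p = 0.00108), and with 8 livers the value was −1.88 ± 0.25 with adjusted p = 0.0385. The Cas-20% livers were the lowest of the series for *Csad*, since the range was 898 to 1126 CPM on Soy-20%, 1332 to 1569 CPM on Soy-10% and 1043 to 1811 CPM on Cas-5%.

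*Ces2a* (chr8:104734003-104741634, plus strand) had the smallest spread of the 3, at 112 to 140.2 CPM (median 133) on Cas-20% and 238 to 307 CPM (median 256) on Soy-20% + SAA. It was 2.02-fold higher on soy (log2 fold change −1.02 ± 0.08 (SE), adjusted p = 5.14e-05), and the 8-liver value was −0.99 ± 0.11 with adjusted p = 0.00681. For *Ces2a* the other diets fell by protein source, at 206 to 318 CPM on Soy-20%, 247 to 328 CPM on Soy-10% and 100.0 to 136 CPM on Cas-5%.

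**Figure D2:**
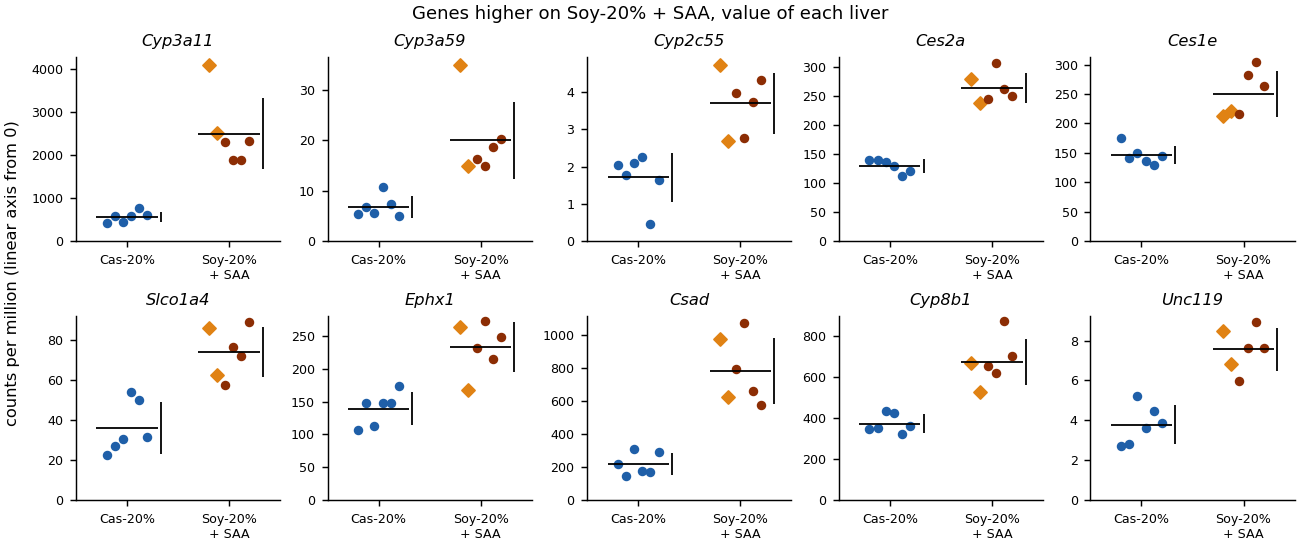
Level in CPM (vertical axes, linear from 0) of 10 genes called higher on Soy-20% + SAA, one point a liver, with the mean as a line and the SD as a bar beside it; diamonds mark Soy-20% + SAA livers 1 and 2 and dark circles livers 3 to 6. For each gene both diamonds lie above every casein liver, except for *Ephx1*, where the diets overlap.

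Foreign compound enzymes moved both ways between the diets. Of 33 cytochromes P450 of families 1 to 3 that were tested, 3 were called higher on Soy-20% + SAA (9.09% against 1.01% of all genes) and 3 higher on Cas-20% (9.09% against 1.42%), with a list median of 0.04. Besides *Cyp3a11*, the soy-higher members were *Cyp3a59*, a low-level relative of it, and *Cyp2c55*, a P450 that nuclear receptor ligands induce. *Cyp3a59* was at 5.01 to 10.9 CPM (median 6.20) on Cas-20% and 15.0 to 35.0 CPM (median 17.5) on Soy-20% + SAA, a fold of 2.90 (log2 fold change −1.54 ± 0.24 (SE), adjusted p = 0.0155), with −1.87 ± 0.30 in 8 livers. The 3A genes are close relatives, so reads may have been split between *Cyp3a11* and *Cyp3a59* by the counting. *Cyp2c55* was at 0.466 to 2.25 CPM (median 1.92) on Cas-20% and 2.68 to 4.72 CPM (median 3.85) on Soy-20% + SAA, a difference of −1.10 ± 0.26 on the log2 scale, and −1.12 ± 0.39 with 8 livers. The casein-higher members were *Cyp1a2*, which oxidises caffeine and aromatic amines, *Cyp2c37* and *Cyp2c40*. *Cyp1a2* was at 393 to 635 CPM (median 512) on Cas-20% and 233 to 396 CPM (median 312) on Soy-20% + SAA, with overlap (log2 fold change 0.71 ± 0.13 (SE), adjusted p = 0.0279), and 0.68 ± 0.17 in 8 livers. *Cyp2c37* and *Cyp2c40* had log2 fold changes of 0.78 ± 0.19 and 1.24 ± 0.30 with 12 livers and 0.69 ± 0.27 and 1.67 ± 0.50 with 8, and the highest level of *Cyp2c40* in the 12 livers was 2.80 CPM. *Cyp3a25*, another 3A gene, named after its values were seen, was at 0.04 ± 0.30 with 12 livers and −0.74 ± 0.19 with 8, where its unadjusted p was 0.00197 in the edgeR fit, and it passed the adjusted threshold in neither.

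Another carboxylesterase, *Ces1e*, was higher on soy, at 129.6 to 176 CPM (median 143) on Cas-20% and 213 to 304 CPM (median 242) on Soy-20% + SAA without overlap (log2 fold change −0.76 ± 0.10 (SE), adjusted p = 0.00689), and −0.57 ± 0.11 with 8 livers. Of 46 conjugating and antioxidant enzymes, 1 was called, higher on Soy-20% + SAA (2.17% against 1.01% of all genes). It was *Ephx1*, the microsomal epoxide hydrolase, at 106 to 173 CPM (median 148) on Cas-20% and 167 to 273 CPM (median 240.5) on Soy-20% + SAA. Its ranges overlapped, with Soy-20% + SAA liver 2 below the highest Cas-20% liver, and its log2 fold change was −0.74 ± 0.14 with adjusted p = 0.0261, and −0.63 ± 0.19 with 8 livers. *Slco1a4*, a transporter that takes up bile acids and drugs, was at 22.3 to 54.2 CPM (median 31.0) on Cas-20% and 57.5 to 89.0 CPM (median 74.5) on Soy-20% + SAA without overlap (log2 fold change −1.03 ± 0.20 (SE), adjusted p = 0.03), with −1.05 ± 0.28 in 8 livers.

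*Slco1a4* belongs to the bile acid genes. Of 21 tested, 1 was called higher on Cas-20% (4.76% against 1.42% of all genes). On Soy-20% + SAA 2 were called higher (9.52% against 1.01%). The second was *Cyp8b1*, the sterol 12α-hydroxylase that directs bile acid synthesis to cholic acid. *Cyp8b1* was at 320.0 to 436 CPM (median 356) on Cas-20% and 526 to 872 CPM (median 661) on Soy-20% + SAA, with no overlap, a fold of 1.80 (log2 fold change −0.85 ± 0.11 (SE), adjusted p = 0.00689), and −0.68 ± 0.13 in 8 livers. The member higher on casein was *Nr0b2*, which encodes SHP, a repressor of bile acid synthesis genes. *Nr0b2* was at 32.1 to 57.2 CPM (median 45.0) on Cas-20% and 17.3 to 34.6 CPM (median 24.1) on Soy-20% + SAA with overlap (log2 fold change 0.76 ± 0.19 (SE), adjusted p = 0.0473), and its 8-liver value, 1.02 ± 0.22, was the larger. The list median was 0.09 with 12 livers and −0.08 with 8.

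The genes of amino acid breakdown and of the urea cycle that passed the test were all higher on Cas-20%. Of 41 genes of amino acid catabolism tested, 7 were called higher on Cas-20% (17.1% against 1.42% of all genes) and 0 lower, 31 of 41 had a positive fold change, and the median was 0.22 with 12 livers, 0.23 with 8 livers and 0.00 over all genes in both. No member passed the adjusted threshold with 8 livers, and 6 of the 7 had an unadjusted p under 0.05 there. Of 11 urea cycle and ammonia genes, 4 were called higher (36.4% against 1.42% of all genes) and 0 lower, with a median of 0.12 with 12 livers and 0.21 with 8. None of the 11 passed the adjusted threshold with 8 livers, where 3 of the 4 had an unadjusted p under 0.05. With the GC slope of each library as a covariate, 0 members of either list passed. Leaving out 1 library at a time gave 0 to 11 calls higher on Cas-20% in the first list and 0 to 4 in the second. Calls higher on Soy-20% + SAA in those fits were 0 to 2 in the first list and 0 in the second. Over all genes, the same fits gave 3 to 1190 calls higher on Cas-20% and 6 to 627 higher on Soy-20% + SAA. The list medians ranged from 0.17 to 0.25 and from 0.04 to 0.17 in those fits.

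Among the catabolic genes, *Sds*, serine dehydratase, which turns serine into pyruvate and ammonia, was at 129 to 370.5 CPM (median 174) on Cas-20% and 7.97 to 104 CPM (median 33.8) on Soy-20% + SAA. The lowest casein liver was above the highest soy liver, and the fold was 5.08 (log2 fold change 2.35 ± 0.52 (SE), adjusted p = 0.0399). Soy-20% + SAA livers 1 and 2 held 104 and 64.9 CPM and livers 3 to 6 7.97 to 44.8 CPM, and the 8-liver log2 fold change was 1.36 ± 0.38. *Tat*, tyrosine aminotransferase, the first enzyme of tyrosine breakdown, was at 264 to 817 CPM (median 426) on Cas-20% and 80.9 to 279 CPM (median 118) on Soy-20% + SAA, with Soy-20% + SAA liver 1 within the casein range. Its fold was 3.44 (log2 fold change 1.78 ± 0.31 (SE), adjusted p = 0.0206), falling to 1.24 ± 0.40 in 8 livers, and its last 200 bases had a GC content of 24.5%, against the median of 40.5% over all genes tested.

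*Aass*, the bifunctional enzyme that begins lysine breakdown, had a log2 fold change of 0.66 ± 0.15 with 12 livers and 0.36 ± 0.13 with 8. *Amdhd1* of histidine breakdown followed at 0.53 ± 0.11 and 0.25 ± 0.10. *Dbt*, a subunit of the branched-chain ketoacid dehydrogenase, had 0.44 ± 0.10 and 0.23 ± 0.13, and *Mccc2*, a subunit of the leucine pathway's methylcrotonyl-CoA carboxylase, 0.38 ± 0.09 and 0.28 ± 0.11. The members spanned −0.40 (*Kyat3*) to 2.35 (*Sds*). *Oat* (0.68 with 12 livers, 0.83 with 8), *Got1* (0.77 and 0.91) and *Acmsd* (1.11 and 1.25) had larger values with 8 livers but did not pass, at adjusted p = 0.051, 0.051 and 0.072 in the 12-liver edgeR fit.

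In the urea cycle, *Cps1*, carbamoyl phosphate synthetase, which fixes ammonia in the first step, was at 762 to 1255 CPM (median 997) on Cas-20% and 289 to 737 CPM (median 499) on Soy-20% + SAA. It did not overlap and was 2.0-fold higher (log2 fold change 1.0 ± 0.23 (SE), adjusted p = 0.0435), but Soy-20% + SAA livers 1 and 2 held 621 and 737 CPM against 289 to 656 CPM in livers 3 to 6, and the 8-liver value was 0.55 ± 0.19. *Ass1*, argininosuccinate synthetase, was at 546 to 1179 CPM (median 698) on Cas-20% and 393 to 562 CPM (median 475) on Soy-20% + SAA, with overlap (log2 fold change 0.69 ± 0.16 (SE), adjusted p = 0.0441), and 0.81 ± 0.25 in 8 livers. *Arg1*, the arginase that releases urea, was at 1024 to 1297 CPM (median 1160.0) on Cas-20% and 592 to 1024 CPM (median 762) on Soy-20% + SAA, which gave 0.58 ± 0.14 on the log2 scale, and 0.25 ± 0.12 with 8 livers. *Gls2*, the liver glutaminase that frees ammonia from glutamine, had 0.52 ± 0.13 and 0.55 ± 0.17. *Otc* (0.04 with 12 livers, 0.14 with 8), *Asl* (0.12 and 0.18), *Nags* (0.03 and 0.21) and *Glud1* (−0.03 and 0.05) did not pass the test.

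**Figure D3:**
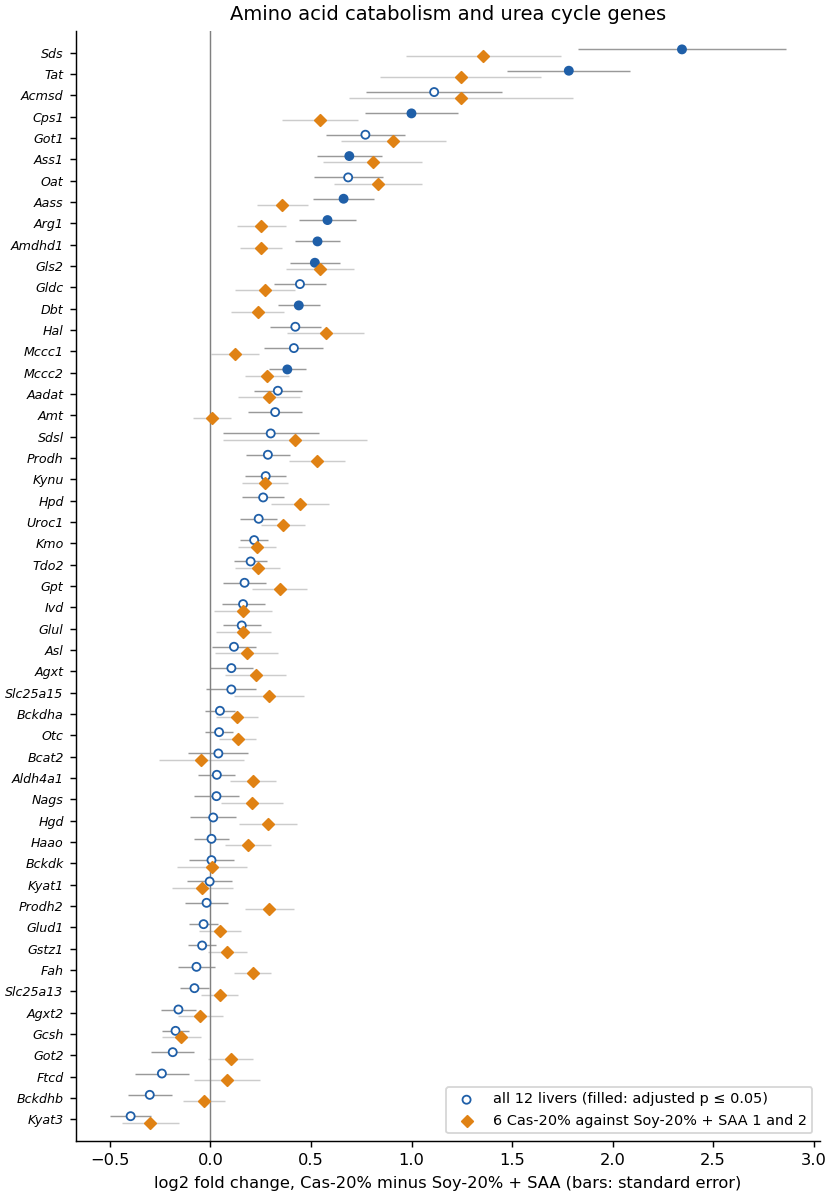
Log2 fold change, Cas-20% minus Soy-20% + SAA (horizontal axis, bars are the standard error), of tested genes of amino acid catabolism and of the urea cycle (vertical axis, ordered by value), with all 12 livers (circles, filled where adjusted p is 0.05 or less) and with the 8 livers that leave out Soy-20% + SAA 3 to 6 (diamonds). The filled circles all lie to the right of 0, from 0.38 for *Mccc2* to 2.35 for *Sds*, and their diamonds lie to the right of 0 too.

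Of the amino acid transporters, 2 of 22 were called higher on Cas-20% (9.09% against 1.42% of all genes). On Soy-20% + SAA 1 was called higher (4.55% against 1.01%). *Slc7a2*, which carries cationic amino acids such as arginine and lysine, was at 359 to 551 CPM (median 415) on Cas-20% and 252 to 301 CPM (median 293) on Soy-20% + SAA without overlap (log2 fold change 0.60 ± 0.10 (SE), adjusted p = 0.0177). The 8-liver value of *Slc7a2* was 0.66 ± 0.15. *Slc38a3*, a glutamine and histidine carrier, was at 494 to 618 CPM (median 514) on Cas-20% and 377 to 486 CPM (median 418) on Soy-20% + SAA, and its log2 fold change was 0.34 ± 0.08, and 0.37 ± 0.11 with 8 livers. *Slc6a9*, a glycine transporter, was higher on soy, at 16.3 to 23.5 CPM (median 20.1) on Cas-20% and 23.7 to 36.5 CPM (median 31.6) on Soy-20% + SAA, and its log2 fold change was −0.63 ± 0.11 and −0.47 ± 0.14 with 8 livers.

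**Figure D4:**
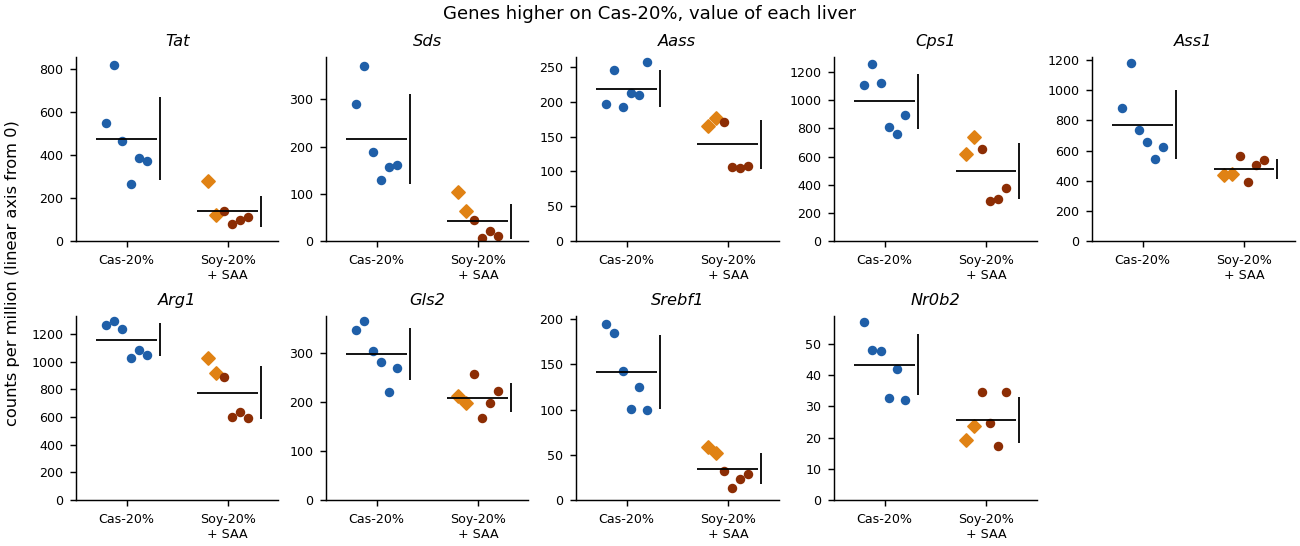
Level in CPM (vertical axes, linear from 0) of 9 genes called higher on Cas-20%, one point a liver, with the mean as a line and the SD as a bar beside it; diamonds mark Soy-20% + SAA livers 1 and 2 and dark circles livers 3 to 6. For *Sds*, *Cps1*, *Arg1* and *Srebf1* both diamonds lie above livers 4 to 6 of the same diet, and for *Tat*, *Ass1*, *Gls2* and *Nr0b2* the diets overlap.

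The diets matched methionine and cystine, and the genes of sulfur amino acid use were called in transsulfuration and cysteine use but not in the methionine cycle. None of 17 genes of the methionine cycle and methyltransferases was called in the 12-liver edgeR fit, and their median was 0.05. An unadjusted p under 0.05 was found there for 3 of the 17, against 3143 of 11988 genes tested. DESeq2 called 3 of the 17 higher on Cas-20%, against 659 over all genes. Among the 17, *Nnmt*, nicotinamide N-methyltransferase, had the smallest adjusted p, at 49.5 to 143 CPM (median 80.0) on Cas-20% and 31.1 to 60.0 CPM (median 41.7) on Soy-20% + SAA (log2 fold change 0.91 ± 0.23 (SE), adjusted p = 0.051). Of 14 genes of transsulfuration and cysteine use, *Sqor* and *Tst* were called higher on Cas-20% (14.3% against 1.42% of all genes) and *Csad* higher on Soy-20% + SAA (7.14% against 1.01%), with a median of 0.08 with 12 livers and 0.12 with 8. *Sqor*, which oxidises hydrogen sulfide in mitochondria, had a log2 fold change of 0.57 ± 0.14 and 0.24 ± 0.11 with 8 livers. *Tst*, the sulfurtransferase rhodanese, had 0.84 ± 0.20, but 0.31 ± 0.10 with 8 livers, with 46.8 and 44.7 CPM in Soy-20% + SAA livers 1 and 2 and 18.3 to 33.3 CPM in livers 3 to 6.

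The genes of the amino acid stress response showed no call. None of 22 ATF4 targets and serine synthesis genes passed in the 12-liver edgeR fit, DESeq2 called 0, and the median was −0.02. In the edgeR fit 6 of the 22 had an unadjusted p under 0.05, against 3143 of 11988 genes tested. *Fgf21*, the hormone that the liver releases in protein restriction, was at 1.49 to 5.78 CPM (median 1.99) on Cas-20% and 0.895 to 5.61 CPM (median 2.01) on Soy-20% + SAA. Its log2 fold change of 0.15 ± 0.41 (adjusted p = 0.846) turned to −0.59 ± 0.47 with 8 livers. *Asns*, asparagine synthetase, was at 0.716 to 4.33 CPM (median 1.79) on Cas-20% and 0.36 to 4.75 CPM (median 1.38) on Soy-20% + SAA, and its log2 fold change was −0.03 ± 0.56 that changed sign between settings. *Psat1*, of serine synthesis, had 2 to 7 counts on Cas-20% and 2 to 9 on Soy-20% + SAA and was too low to test, so a difference was not detectable at this depth.

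*Srebf1*, whose SREBP-1c product drives fatty acid synthesis genes, was the only called gene of 24 for fatty acid synthesis and desaturation (4.17% against 1.42% of all genes). It was at 99.9 to 195 CPM (median 134) on Cas-20% and 13.4 to 59.1 CPM (median 30.5) on Soy-20% + SAA without overlap, 4.09-fold higher on casein (log2 fold change 2.03 ± 0.30 (SE), adjusted p = 0.0134). Soy-20% + SAA livers 1 and 2 held 59.1 and 51.5 CPM and livers 3 to 6 13.4 to 32.0 CPM, and with 8 livers the value was 1.35 ± 0.26. The median of the 24 genes was −0.02 with 12 livers and 0.21 with 8. *Fasn*, fatty acid synthase, was at 189.9 to 890.5 CPM (median 409) on Cas-20% and 256 to 917 CPM (median 453) on Soy-20% + SAA, and its log2 fold change was −0.07 ± 0.40 that was 0.63 ± 0.55 with 8 livers. *Scd1*, stearoyl-CoA desaturase, had 0.32 ± 0.25 and 0.59 ± 0.24, neither past the adjusted threshold.

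*Abcg5*, a subunit of the transporter that exports sterols into bile, was the 1 called gene of 11 for sterol export and LXR targets (9.09% against 1.42% of all genes). It was at 31.9 to 50.1 CPM (median 45.3) on Cas-20% and 24.5 to 30.9 CPM (median 28.2) on Soy-20% + SAA without overlap (log2 fold change 0.67 ± 0.11 (SE), adjusted p = 0.0177), with 0.54 ± 0.15 in 8 livers. *Pck1*, the gluconeogenic enzyme phosphoenolpyruvate carboxykinase, was the 1 called gene of 29 for glucose metabolism (3.45% against 1.42% of all genes). It was at 1156 to 1534 CPM (median 1314) on Cas-20% and 456 to 1283 CPM (median 679) on Soy-20% + SAA, and its log2 fold change of 0.85 ± 0.20 fell to 0.41 ± 0.19 with 8 livers. No gene was called among 25 of cholesterol synthesis and uptake (median −0.15 with 12 livers, −0.06 with 8), 21 of lipid droplets (−0.24 and −0.11) or 34 of fatty acid oxidation (−0.25 and −0.09). In the same edgeR fit 6, 7 and 12 of these had an unadjusted p under 0.05, and DESeq2 called 1, 2 and 9. Over all genes tested the counts were 3143 of 11988 with such a p and 1155 called by DESeq2.

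Of 19 clock genes tested, 3 were called higher on Cas-20% (15.8% against 1.42% of all genes). The list median was 0.10 with 12 livers and 0.13 with 8. *Per2*, a period gene, was at 8.10 to 14.5 CPM (median 11.9) on Cas-20% and 5.10 to 9.17 CPM (median 7.56) on Soy-20% + SAA (log2 fold change 0.72 ± 0.17 (SE), adjusted p = 0.0431), with 0.70 ± 0.24 in 8 livers. *Nr1d1*, which encodes the repressor REV-ERBα, was at 56.6 to 70.0 CPM (median 66.2) on Cas-20% and 48.8 to 55.0 CPM (median 51.4) on Soy-20% + SAA without overlap, a difference of 0.33 ± 0.07, and 0.32 ± 0.10 with 8 livers. *Bhlhe40*, a repressor of clock genes, had 0.71 ± 0.14 and 0.49 ± 0.18. The hour at which each liver was taken is not given in the sources used here, and its part in these values was not tested.

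Genes that stayed called in at least 10 of the 12 fits without 1 library were added after values were seen. *Klf15*, a transcription factor of amino acid catabolism and gluconeogenesis, was 1 of the 5 genes also called with the GC slope of each library as a covariate, beside *Cyp3a11*, *Csad*, *Ces2a* and *Cyp3a59*. *Klf15* was at 66.2 to 77.6 CPM (median 71.9) on Cas-20% and 30.1 to 50.6 CPM (median 40.9) on Soy-20% + SAA without overlap (log2 fold change 0.81 ± 0.12 (SE), adjusted p = 0.0109), with 0.53 ± 0.10 in 8 livers, and a 3′ end GC content of 23%. *Nr4a1*, an immediate early nuclear receptor, had the largest value of these, 2.80 ± 0.47 with 12 livers and 2.64 ± 0.72 with 8, at 1.22 to 9.91 CPM (median 3.95) on Cas-20% and 0.0895 to 1.26 CPM (median 0.597) on Soy-20% + SAA with overlap. *Zfp36*, which speeds the decay of AU-rich messenger RNAs, was at 26.1 to 47.9 CPM (median 36.5) on Cas-20% and 11.4 to 23.8 CPM (median 14.3) on Soy-20% + SAA (log2 fold change 1.19 ± 0.19 (SE), adjusted p = 0.0178) and had 0.69 ± 0.19 with 8 livers. *mt-Nd5*, a mitochondrial subunit of complex I, was at 2304 to 2924 CPM (median 2627) on Cas-20% and 1826 to 2014 CPM (median 1858) on Soy-20% + SAA (log2 fold change 0.47 ± 0.08 (SE), adjusted p = 0.0178), with 0.43 ± 0.12 in 8 livers. On the soy side, *Tmem140*, a transmembrane protein gene, was at 27.5 to 43.3 CPM (median 35.4) on Cas-20% and 46.8 to 63.5 CPM (median 59.3) on Soy-20% + SAA without overlap, with −0.70 ± 0.11 and −0.51 ± 0.14, and *Zscan21*, a zinc finger gene, at 6.12 to 7.34 CPM (median 6.61) on Cas-20% and 9.08 to 10.8 CPM (median 9.49) on Soy-20% + SAA without overlap, with −0.53 ± 0.09 and −0.48 ± 0.13.

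Further genes without overlap were named by a rule set after values were seen, which asked for a value with 8 livers of at least 2/3 of that with 12. Higher on Cas-20% at low levels were *Lgr5*, a receptor for R-spondins, at 4.19 to 7.43 CPM (median 5.35) on Cas-20% and 2.40 to 4.10 CPM (median 3.36) on Soy-20% + SAA, and its log2 fold change was 0.75 ± 0.17 and 0.96 ± 0.26 with 8 livers, *Nkd1*, an inhibitor of WNT signalling, with 0.84 ± 0.14 and 0.56 ± 0.17, and *Ror1*, a receptor for WNT5A, with 1.38 ± 0.24 and 1.5 ± 0.36. The transcription factor gene *Mycn* had 1.74 ± 0.38 and 1.97 ± 0.64, with a highest level of 3.16 CPM in the 12 livers. On the soy side, *Unc119*, *Coprs* and *Rab34* were without overlap, at log2 fold changes of −0.99 ± 0.16, −0.92 ± 0.16 and −0.77 ± 0.13 with 12 livers and −1.01 ± 0.23, −0.74 ± 0.17 and −0.73 ± 0.17 with 8, and a highest level of 12.1 CPM. The same rule also took *Snhg11*, higher on soy at −1.04 ± 0.20 and −1.01 ± 0.19, and on the casein side *Pde4b*, a cyclic AMP phosphodiesterase, at 0.67 ± 0.14 and 0.68 ± 0.19, *Cdkn2d*, a cyclin-dependent kinase inhibitor, at 0.67 ± 0.14 and 0.77 ± 0.21, and *Swap70*, *Stard3nl*, *Tnfaip8l3* and *Spidr*, whose values were 0.66 to 1.01 with 12 livers and 0.44 to 0.72 with 8.

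Of 5 red blood cell markers, the 4 haemoglobin genes were called higher on Cas-20% (80.0% against 1.42% of all genes). The log2 fold change was 0.78 ± 0.17 for *Hbb-bs* (0.81 ± 0.25 with 8 livers) and 0.81 ± 0.19 for *Hba-a1* (0.84 ± 0.28 with 8). The fifth marker, *Alas2*, was not called, at −0.05 with 12 livers. Against Soy-20% in place of Soy-20% + SAA, 0 of the 5 were called. The summed level of the list was 1460 to 3227 CPM on Cas-20% and 1112 to 1745 CPM on Soy-20% + SAA, which overlap. In whole liver, fewer cells of a type and less RNA per cell cannot be told apart, and the part of blood in the other differences was not tested. The paired haemoglobin genes are near-identical, and reads may be split between them. The summed level of 10 hepatocyte markers was 74386 to 84060 CPM and 74493 to 88735 CPM, which overlap, and *Tat*, *Cps1* and *Ass1* are 3 of these 10. In the edgeR fit no marker of Kupffer cells, lymphocytes, endothelium, stellate cells, cholangiocytes, adipocytes or pancreatic acinar cells was called, where 6 of 42 had an unadjusted p under 0.05, and DESeq2 called 4. Over all genes tested, 3143 of 11988 had such a p and DESeq2 called 1155.

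Few ribosomal protein and respiratory chain genes were called in the 12-liver edgeR fit. Of 80 cytosolic ribosomal proteins, 2 were called higher on Soy-20% + SAA (2.5%), *Rps12* at −0.41 ± 0.09 (−0.28 ± 0.11 with 8 livers) and *Rpl36a* at −0.41 ± 0.10 (−0.29 ± 0.12), and of 79 nuclear genes of the respiratory chain 1 was (1.27%), *Cox6c* at −0.32 ± 0.08 (−0.18 ± 0.10), against 1.01% of all genes. In that fit 32 of the 80 and 21 of the 79 had an unadjusted p under 0.05, and DESeq2 called 14 and 7. For these and the lists that follow, the totals over all genes were 3143 of 11988 with such a p and 1155 called by DESeq2. A positive fold change was found in 19 of the 80 ribosomal protein genes, and their median was −0.13 with 12 livers and −0.05 with 8, while that of the respiratory chain was −0.06 and 0.08. Male-biased liver genes (22 tested), the growth hormone and IGF1 axis (14), acute phase (25), antigen presentation and interferon (27), chaperones and heat shock (23), metal handling (19), and lipid binding and apolipoproteins (23) had 0 calls in edgeR. Of their members, 2, 2, 6, 7, 5, 4 and 5 had an unadjusted p under 0.05 there, and DESeq2 called 0, 1, 3, 2, 2, 1 and 3. Of 9 female-biased genes, *Cyp2c40* was the 1 called, higher on Cas-20% (11.1% against 1.42% of all genes).

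**Figure D5:**
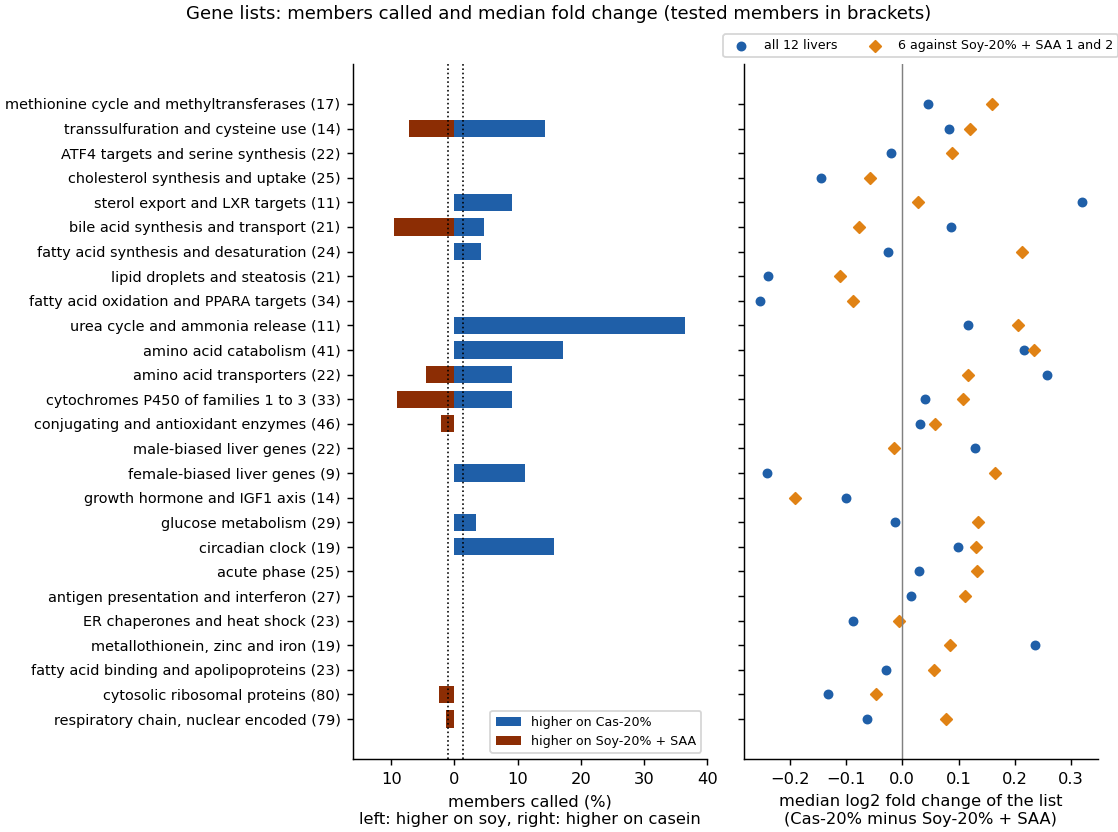
Left, share of the tested members of each gene list called in the 12-liver fit (%, right of 0 higher on Cas-20%, left of 0 higher on Soy-20% + SAA), with dotted lines at the shares over all genes, 1.42% and 1.01%; right, median log2 fold change of each list with 12 livers (circles) and 8 livers (diamonds). The urea cycle list reaches 36.4% and amino acid catabolism 17.1%, and their medians are above 0 in both fits. No member of either list passed the adjusted threshold with 8 livers.

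Some called genes had values near 0 with 8 livers. *Nelfcd*, a subunit of the negative elongation factor, was at 25.7 and 24.7 CPM in Soy-20% + SAA livers 1 and 2, 31.4 to 51.1 CPM in livers 3 to 6 and 17.5 to 26.8 CPM on Cas-20%, and its log2 fold change was −0.78 ± 0.20 with 12 livers and −0.17 ± 0.16 with 8. *Rbpms2* had −0.53 ± 0.13 and −0.16 ± 0.12, and *Cpne3*, of the copine family, 0.48 ± 0.12 and 0.16 ± 0.09, with 80.8 and 77.0 CPM in livers 1 and 2 and 50.1 to 65.1 CPM in livers 3 to 6.

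The diets without matched sulfur amino acids give the same genes their levels on soy protein alone. Cas-20% against Soy-20%, which has 0.22 g methionine and 0.22 g cystine per 100 g, called 319 of 11875 genes (2.69%), 172 higher on Cas-20%. That comparison shares the Cas-20% livers, so its values are set beside the others without a test of likeness. *Cyp3a11*, *Csad* and *Ces2a* had log2 fold changes of −2.40, −2.24 and −1.05 in it, against −2.12 ± 0.20, −1.85 ± 0.21 and −1.02 ± 0.08 with added sulfur amino acids. *Srebf1* was at 1.13, *Tat* at 1.09, *Cps1* at 0.69 and *Klf15* at 0.48, and *Slc7a2* was at 0.91. The Soy-20% libraries had no GC trend. In it, 13 of the 41 genes of amino acid catabolism were called higher on Cas-20% and 0 lower, with a median of 0.23. Of the urea cycle, 2 of 11 were higher and 0 lower. The shares over all genes were 1.45% higher and 1.24% lower. Other lists had calls there too. Higher on Cas-20% were 6 of 17 methionine cycle genes, 5 of 24 of fatty acid synthesis and 6 of 21 amino acid transporters. Lower in these lists were 0, 0 and 1. Of 32 cytochromes P450, 1 was higher and 5 were lower.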

How the data were processed

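Liver RNA of 6 mice a diet was made into QuantSeq 3′ libraries, which give reads near the polyadenylation site, and the labels state 50 bp forward reads. Per the labels, the builds named are GRCm38 and mm10 and the tools R 4.0.3 and DESeq2 1.30, and the study's methods name a Lexogen pipeline for mapping and counting; the aligner is not given in the sources used here. The authors deposited raw counts of 14173 genes in 30 libraries, none with a total under 90 over all libraries. They also deposited a normalized signal, the counts divided by DESeq2 size factors, which served for gene symbols and as a check of the size factors. Gene coordinates came from GENCODE M21, and its start was that of the deposited signal for 12406 of 12455 genes compared. The 12 libraries compared held 9788023 to 14565542 counts. The ± values are standard errors, the absolute log2 fold change over the square root of the F statistic of edgeR's quasi-likelihood test. They therefore include the spread between livers as well as counting error.

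The raw counts were tested with edgeR 4.0.16 (quasi-likelihood F test, filterByExpr, TMM, Benjamini-Hochberg adjustment over all genes tested, adjusted p of 0.05) in R 4.3.3, with 12 libraries and with 8, and levels are CPM. DESeq2 1.42.0, limma 3.58.1 with voom and library weights, other normalization and filtering, all 30 libraries, the GC slope of each library as a covariate, Soy-20% in place of Soy-20% + SAA, a replicate block and leaving out each library were alternatives. On data simulated from these libraries with 200 genes changed 2-fold, edgeR recovered 89.5% with 12 libraries and 80.0% with 8, in runs of 11854 and 12304 genes. The simulated counts were independent between libraries and held no GC trend, and the changed genes were taken from those above a count floor. The run was therefore a check of the code, and its shares are not the power of either fit on the real libraries. The GC content of the last 200 transcript bases came from GENCODE M21. The smallest chi-square per degree of freedom between libraries of a diet was 8.69, so no 2 libraries agreed within sampling noise. Labels give 1 library a number within a diet and do not say that numbers pair mice, and p-values measure the spread between these livers.

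The comparison, members and gene lists were chosen with earlier results of these data known. Genes were named by a fixed rule: those called in both fits without overlap (up to 12 a direction), the 3 members of each list with the smallest adjusted p, *Fgf21*, *Asns*, *Psat1*, *Fasn* and *Scd1*, and the 3 called genes of at least 100 counts that changed most while the 8-library value was under 0.2. Added after values were seen were genes without overlap whose 8-library value had an unadjusted p under 0.05 and at least 2/3 of the 12-library size, every called list member, and protein-coding genes called in 10 or more of the 12 fits without 1 library. A gene that this rule chose is not reported here, and counts over lists include it. The marker lists were hepatocytes, Kupffer cells, lymphocytes, endothelium, stellate cells, cholangiocytes, adipocytes, red blood cells and pancreatic acinar cells.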

Additional observations from a re-analysis of the deposited data

Results flagged for a closer look

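A liver far from the others of its diet was found in 10 of 236 groups of 6 livers tested (4.24%), and chance alone gives such a gap in about 1 of 20 groups. Soy-20% + SAA liver 1 was the highest of its diet for 4 genes, with 4103 CPM of *Cyp3a11* against 1884 to 2531 in the other 5, 35.0 CPM of *Cyp3a59* against 15.0 to 20.2, 279 CPM of *Tat* against 80.9 to 140.2 and 5.61 CPM of *Fgf21* against 0.895 to 2.58. Cas-20% liver 2 was the highest for *Scd2*, with 10.5 CPM against 1.95 to 4.57, and for *Slc38a3*, with 618 CPM against 494 to 539, and the lowest for *Snhg11*, with 6.31 CPM against 9.34 to 10.8. Cas-20% liver 5 had 0.466 CPM of *Cyp2c55* against 1.64 to 2.25, Cas-20% liver 3 had 3.33 CPM of *Spidr* against 1.86 to 2.32, and Soy-20% + SAA liver 3 had 47.4 CPM of *Pde4b* against 31.6 to 37.4. Without Soy-20% + SAA liver 1, the log2 fold change of *Cyp3a11* remained called.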

How the results depend on the processing

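The number of genes called, 291, was 301 with DESeq2 size factors, 264 without a filter on low counts and 319 with Soy-20%. It moved to 1155 with DESeq2 (659 higher on Cas-20%), 2331 with all 30 libraries in the fit, 1826 with library weights in limma (1251 higher on Cas-20%), 3112 with Soy-20% + SAA libraries 3 to 6, 3 with libraries 1 and 2 and 5 with the GC slope as a covariate, where 1377 had an unadjusted p under 0.05. Calls of at least 1 on the log2 scale moved from 57 to 102 with DESeq2, 239 with 30 libraries, 359 with library weights, 615 with libraries 3 to 6, 2 with libraries 1 and 2 and 3 with the GC covariate. Without 1 library at a time the counts ranged from 9 to 1817 and from 6 to 343. Genes called in both fits were 22 with DESeq2 in place of 3, 13 of them higher on Cas-20%. The slope difference ranged from −0.123 without Soy-20% + SAA 1, where p = 0.026 in the exact permutation test (also without 2), to −0.0797 without Soy-20% + SAA 6. That test compares diet means, and no conclusion on libraries 3 to 6 is drawn from it. Some of these fits held fewer libraries, and the cause of each change was not tested.

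Of 65 named genes called, 3 stayed called with libraries 1 and 2, 5 with the GC covariate, 29 with Soy-20%, 61 with DESeq2, 65 with libraries 3 to 6 and 9 to 65 without 1 library, and none changed sign in any of these. In the list of amino acid catabolism 13 members were called higher on Cas-20% with DESeq2, 18 with 30 libraries and 11 with library weights. With libraries 3 to 6 it was 13, and with libraries 1 and 2 or the GC covariate 0. Members called higher on soy were 1 with DESeq2, 3 with 30 libraries, 1 with library weights and 4 with libraries 3 to 6. Calls over all genes rose as well, from 170 higher on Cas-20% and 121 higher on soy in the main fit. They were 659 and 496 with DESeq2, 1387 and 944 with 30 libraries, 1251 and 575 with library weights, and 1910 and 1202 with libraries 3 to 6. The median of the catabolism list stayed between 0.17 and 0.25. Among the genes named by the rule, sign changes fell on 14 that were not called. Outside it, list members that were not called also changed sign with libraries 1 and 2. Among them were *Cyp3a25*, *Glud1*, *Fah*, *Ftcd*, *Got2*, *Prodh2*, *Slc25a13*, *Cyp2a22* and *Cyp2d40*. With Soy-20%, *Apof* was at 0.0457, *Atp5e* −0.0169, *Cebpb* −0.28, *Dnajb9* −0.10, *Fasn* 0.57, *Fdft1* 0.11, *Fgf21* −0.42, *Igfbp3* −0.37, *Il1r1* −0.10, *Msmo1* 0.046, *Slc39a4* −0.0587 and *Socs3* −0.00639. With libraries 1 and 2, *Fasn* was at 0.63, *Fgf21* −0.59, *Gdf15* 0.22, *Igfbp3* −0.19 and *Socs3* −0.19. With the GC covariate *Fasn* was at 0.51 and *Fgf21* at −0.46. *Asns* was at 0.16 with libraries 3 to 6 and 0.24 with library weights. Without 1 library, *Asns* ranged from −0.42 to 0.35, *Fasn* from −0.32 to 0.15 and *Fgf21* from −0.22 to 0.57.

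Correlations of the deviations of libraries of the same number ranged from −0.07 to 0.15. Soy-20% + SAA libraries 2, 3 and 4 correlated best with the Cas-20% library of their own number, and libraries 1, 5 and 6 with another. Whether the numbers pair livers was not tested. With the number as a replicate block 141 genes were called, 37 of the 65 named genes stayed called, and *Asns* was at 0.0863.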

Other observations

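DESeq2 called 25 genes with the 8 livers, and 22 genes in both of its fits, 19 of which edgeR also called with 12 livers. Of those not described above, *Hectd2os*, an antisense transcript, had log2 fold changes of 0.83 with 12 livers and 0.94 with 8, *Gstp3*, a glutathione transferase, 0.59 and 0.75, *Tob1*, an antiproliferative gene, 1.38 and 0.79, *Cyth1* 1.34 and 0.71, and *Hs6st1*, a heparan sulfate sulfotransferase, 0.44 and 0.37. *Slpi*, a secreted protease inhibitor, had 0.85 and 1.75 and *Casc4* −0.74 and −1.05, and neither of these passed in edgeR. *Oat*, ornithine aminotransferase, was at 0.68 and 0.84 there and passed in both DESeq2 fits.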
